A study of Rattus norvegicus with 18 samples.

Results

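Maturation of the control cultures between day 9 and day 12 was described from 6 of the 18 first-run arrays of a study of CHD5, a chromatin remodeling ATPase of neurons. All cultures were primary cortical neurons of rat embryos, and the strain is not given in the sources used here. One day after plating, the cells received for 6 hours a lentivirus expressing a scrambled shRNA (control) or an shRNA against CHD5, and were then kept in Neural Basal Medium. The control arrays were harvested at day 9 (D9 C, replicates a, b and c) and day 12 (D12 C, replicates a, b and c), and all 6 were chosen by these labels, with no measured value used. Every control array thus carries lentiviral infection, and no uninfected culture was analysed here. The labels do not say whether the replicates were separate cultures, so p-values measure the spread between these arrays, which may be technical. The 6 CHD5 shRNA arrays of the same days and the 3 control arrays of day 5 serve as comparisons. Chd5 itself was not analysed here, so its depletion was not checked on these arrays.

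The arrays were Illumina RatRef bead arrays, and the deposited signals had been neither normalized nor corrected for background. Of 22523 probes, 10146 were detected on at least 1 of the 6 control arrays (detection p-value of at most 0.02) and were kept. Levels are log2 signals that were Z-transformed within each array and then rescaled by the average SD over arrays, so a difference of 1 is a 2-fold change. The day 9 control array of replicate b stood apart. Its mean signal was 134.8, against 400.2 to 789 on the other 17 first-run arrays, and 7047 of its probes were detected, against 8360 to 9931. Its SD of log2 signals was 0.90, against 1.56 to 1.88 elsewhere, and its mean signal was 2.07 times background, against 5.80 to 9.65 elsewhere. The Z-transformation stretches such an array. Kept probes were split by level into 5 equal bins. In the lowest bin its normalized level was above the mean of replicates a and c by a median of 0.54, and in bin 4 it differed by a median of -0.57. Calls were therefore made with and without this array. A gene is said to have risen or fallen only if it passed an adjusted p of 0.05 in the same direction both ways. Changes of single genes come from the fit with this array unless stated otherwise, and their size can differ without it. For example, Penk changed by -1.13 with this array and -1.40 without it, and Sparc by 1.21 and 1.00.

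**Figure D1:**
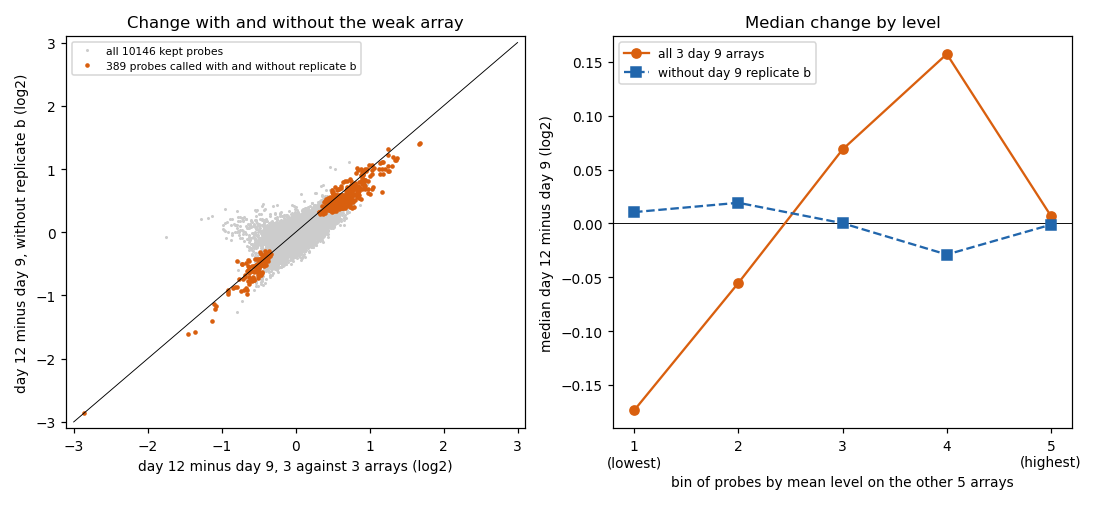
Left, the change from day 9 to day 12 (log2) of each kept probe from 3 against 3 control arrays (x axis) and without the weak day 9 array (y axis), with the 389 probes that passed both ways in orange and the line of equality. Right, the median change in 5 equal bins of probes by level: with the weak array it runs from -0.17 in the lowest bin to 0.16 in bin 4, and without it all 5 medians lie between -0.03 and 0.02.

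Cortical neurons taken before birth extend axons and dendrites, form synapses and become electrically active over the first weeks in culture. Glutamatergic projection neurons and GABAergic interneurons are present from the start, and progenitors that were carried over give rise to astrocytes and to cells of the oligodendrocyte lineage, which build up with time. Interneurons also release peptides, such as cortistatin, enkephalin and nociceptin, along with GABA. Array signals of a bulk culture cannot tell apart more cells of a type from more RNA per cell.

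Between day 9 and day 12, 271 probes rose and 118 fell in the control cultures, both with and without the weak array. Genes of astrocytes, of oligodendrocyte precursors and of the extracellular matrix were among the rises. Peptide precursors of interneurons, with Cort first, the collagen gene Col1a2 and the fibronectin gene Fn1 were among the falls. With all arrays, limma called 472 of 10146 probes (4.65%), of which 327 were higher (3.22%) and 145 lower (1.43%) at day 12. Without the weak array it called 702 (6.92%), 355 higher (3.5%) and 347 lower (3.42%). The 389 probes called both ways are 3.83% of those tested (2.67% higher and 1.16% lower), and 0 changed direction. Counts in the gene lists below are to be read beside these shares. Of these, 388 had no overlap between the 3 arrays of each day, against 19.1% of all kept probes. The probes were selected on these same arrays, so this describes them and adds no separate evidence. The balance of rises and falls depended on the weak array and on the normalization. Of the calls, 69.3% were higher with the weak array and 50.6% without it. Under quantile normalization 790 probes were called, 466 higher and 324 lower, and without the weak array 432 were higher and 402 lower. Median centring gave 150 higher and 64 lower, and 252 and 276 without that array. The excess of 271 rises over 118 falls is therefore not read as a trait of the cultures. The spread was estimated from all 18 arrays, and a fit to the 6 arrays alone called 20 probes. Leaving out the day 12 array of replicate a left 195 calls and that of replicate c 249, that of replicate b left 313, and leaving out the day 9 array of replicate a gave 2004. The median change of all kept probes was -0.01 with the weak array and 0.00 without it. Changes were moderate in size: 35 of the 389 probes reached 2-fold, 28 higher and 7 lower.

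**Figure D2:**
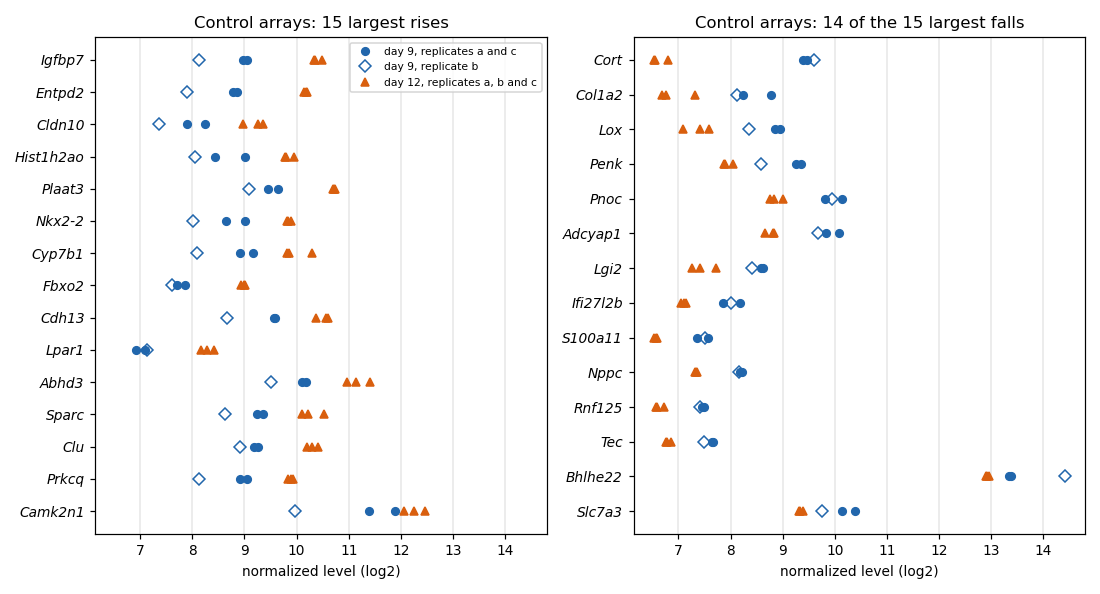
Normalized level (log2, x axis) of the 15 genes with the largest rise and 14 of the 15 with the largest fall on each control array. Circles are day 9 replicates a and c, open diamonds the weak day 9 replicate b, triangles the 3 day 12 arrays. In every row the day 12 arrays lie apart from all 3 day 9 arrays, as the choice of genes by their change on these arrays favours. The weak array lies below the other day 9 arrays for most of the rises.

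Cort, the precursor of cortistatin, a peptide of cortical interneurons related to somatostatin, fell most. Its level was 9.47, 9.60 and 9.38 in replicates a, b and c at day 9 and 6.53, 6.80 and 6.55 at day 12. All day 9 arrays lay more than 2 units above all day 12 arrays, a measured change of -2.86 ± 0.13 (SE, n = 3 and 3; limma adjusted p = 2.54e-10), and the change was the same without the weak array. On 2 of the 3 day 12 arrays the probe was not detected, so the measured levels there do not stand above background and the size of the fall is not exact. A comparison of 3 against 3 arrays cannot go below p = 0.1 in an exact two-sided permutation test, which each of the 30 genes with the largest changes reached. These genes were chosen for their change on the same arrays, so reaching that limit adds no separate evidence.

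Other peptide precursors fell with it. Penk, the precursor of the enkephalins, had levels of 9.34, 8.59 and 9.26 at day 9 and 7.89, 7.86 and 8.04 at day 12 (change -1.13, limma adjusted p = 0.000457). Pnoc, which encodes prepronociceptin, went from 9.81, 9.95 and 10.13 to 9.01, 8.75 and 8.84 (-1.10, limma adjusted p = 2.9e-05). Neither gene's arrays overlapped between days. Adcyap1, the precursor of PACAP, went from 10.08, 9.68 and 9.83 to 8.82, 8.84 and 8.66 (-1.09, limma adjusted p = 2.28e-05). Nppc, the precursor of C-type natriuretic peptide, was at 8.18, 8.17 and 8.21 and then at 7.36, 7.31 and 7.33 (-0.85, limma adjusted p = 0.000361), the tightest groups among the 15 largest falls. Tac1, the precursor of substance P, changed by -0.50 (limma adjusted p = 0.014). Of a list of 21 genes of neuropeptides and their processing, 16 were kept, and 4 of these fell (Cort, Penk, Adcyap1 and Tac1) and 0 rose. The other 12 did not pass both ways. The median of the list was -0.21, and -0.19 without the weak array.

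The DNA before the start of 3 of these genes is shown because Cort and Nppc fell together and Igfbp7 rose most. It covers the 250 bases before the start annotated by RefSeq on build GRCr8. The set of 33469 promoters available here held 18 of the 30 genes with the largest changes. The letters searched, on both strands, were the cAMP response element TGACGTCA, the shorter CGTCA that lies within it, and the TATA box TATAAA. In capitals are CGTCA for Cort and Igfbp7 and TATAAA for Nppc.
Cort (chr5:164845125-164845374, minus strand): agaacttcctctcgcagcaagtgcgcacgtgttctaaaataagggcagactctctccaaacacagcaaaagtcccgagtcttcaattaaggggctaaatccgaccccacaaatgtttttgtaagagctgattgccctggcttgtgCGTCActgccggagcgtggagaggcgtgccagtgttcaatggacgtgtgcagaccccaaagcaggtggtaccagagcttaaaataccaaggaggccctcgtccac
Nppc (chr9:94772187-94772436, minus strand): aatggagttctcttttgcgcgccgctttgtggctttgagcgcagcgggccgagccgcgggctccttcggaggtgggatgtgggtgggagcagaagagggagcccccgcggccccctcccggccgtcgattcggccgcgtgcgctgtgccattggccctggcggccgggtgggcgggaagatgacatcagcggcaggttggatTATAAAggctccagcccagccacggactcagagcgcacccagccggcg
Igfbp7 (chr14:31091486-31091735, plus strand): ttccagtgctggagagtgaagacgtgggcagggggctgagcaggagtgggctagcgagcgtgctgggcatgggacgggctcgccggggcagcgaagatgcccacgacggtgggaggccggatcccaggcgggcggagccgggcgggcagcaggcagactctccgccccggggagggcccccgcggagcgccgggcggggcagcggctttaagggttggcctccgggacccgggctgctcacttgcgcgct
Cort held CGTCA once, starting 105 bases before the start, and Nppc held TATAAA once, 48 bases before it. Igfbp7 held no CGTCA. Of all promoters, 18.2% held CGTCA, 12.9% TATAAA and 1.59% TGACGTCA. Of the 8 falling genes with a promoter, 2 held CGTCA (Cort and Tec), 3 held TATAAA (Adcyap1, Col1a2 and Nppc) and 0 held TGACGTCA. Of the 10 rising genes, 2 held CGTCA (Fbxo2 and Nkx2-2), 0 held TATAAA and 0 held TGACGTCA.

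Interneuron markers were mixed. Of 17 kept genes of a list of 19, 4 fell (Cort, Gad1, Reln and Tac1) and 1 rose, and the list's median was -0.14 with the weak array and -0.26 without. Gad1, a GABA-synthesizing enzyme, had levels of 12.49, 13.24 and 12.60 at day 9 and 12.00, 12.08 and 12.07 at day 12 (-0.73, limma adjusted p = 0.00526), and the fall was -0.51 without the weak array. Reln, the secreted reelin of Cajal-Retzius cells and interneurons, changed by -0.52 (limma adjusted p = 0.0322). Calb2, the calcium-binding protein calretinin, went the other way, from 7.42, 7.76 and 7.56 to 8.47, 8.14 and 8.32 (0.73, limma adjusted p = 0.000504). The summed normalized level of the 17 genes was 24214 to 27027 on the day 9 arrays and 19147 to 19809 on the day 12 arrays.

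Some genes of connective tissue fell, while others on the same list were higher at day 12. Col1a2, a chain of type I collagen, had levels of 8.77, 8.13 and 8.24 at day 9 and 7.33, 6.77 and 6.69 at day 12 (-1.45, limma adjusted p = 0.00236). Lox, the enzyme that crosslinks collagen, went from 8.95, 8.35 and 8.86 to 7.59, 7.09 and 7.41 (-1.35, limma adjusted p = 0.000325). Fn1, fibronectin, changed by -0.62 (limma adjusted p = 0.00306). These were the 3 that fell of the 7 kept fibroblast markers, and 0 rose both ways, with a median of -0.31 (-0.21 without the weak array). Of the other 4, Lum, Dcn and Fbln2, matrix proteins named after their values were seen, were higher at day 12. Their changes were 0.27, 0.25 and 0.23 (limma adjusted p = 0.225, 0.162 and 0.232), and 0.43, 0.21 and 0.23 without the weak array, where Lum passed (limma adjusted p = 0.00899, 0.25 and 0.262). Lum was detected on 0 day 9 arrays and 1 day 12 array, so its levels mostly do not stand above background. Postn, also named after its value was seen, was lower at day 12 (-0.31, limma adjusted p = 0.122) and detected on 1 day 9 array and 0 day 12 arrays. The sum of the 7 markers was 1302 to 1541 at day 9 and 910 to 1001 at day 12. On the 3 day 12 arrays, Col1a2 was detected on 2 and Fn1 on 1, so the sizes of their falls are not exact. Of other collagen genes, Col4a1 and Col5a2 did not pass (-0.16 and -0.32), and Col1a1, Col3a1, Col6a1 and Col6a2 were detected on none of the control arrays of these days.

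The remaining large falls were of several kinds. Lgi2, a secreted leucine-rich repeat protein of neurons, changed by -1.07, Ifi27l2b, of an interferon-inducible family, by -0.92, and Slc7a3, a transporter of cationic amino acids, by -0.74. Tec, a tyrosine kinase, changed by -0.79. S100a11, a calcium-binding protein, and Rnf125, a ubiquitin ligase, were detected on 0 of the 3 day 12 arrays. They were therefore at least 1.67-fold and at least 1.64-fold lower, set against the lowest detected level of each day 12 array. Bhlhe22, a bHLH transcription factor of cortical neurons, went from 13.35, 14.41 and 13.38 to 12.89, 12.96 and 12.92 (-0.79). The change of Bhlhe22 was -0.45 without the weak array, whose level was the highest.

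Igfbp7, a secreted binding protein of insulin-like growth factors, rose most. It had levels of 9.04, 8.12 and 8.96 at day 9 and 10.49, 10.35 and 10.33 at day 12, a change of 1.68 ± 0.19 (SE, n = 3 and 3), or 3.21-fold higher (limma adjusted p = 2.93e-05), and of 1.42 without the weak array. Entpd2, an ectonucleotidase that cleaves extracellular ATP, went from 8.85, 7.90 and 8.78 to 10.15, 10.20 and 10.18 (1.67, limma adjusted p = 0.000171). In both genes the weak array was the lowest of the day 9 arrays, and all day 12 arrays lay more than 1 unit above the other two. Plaat3, a phospholipid-modifying acyltransferase, went from 9.45, 9.09 and 9.65 to 10.75, 10.71 and 10.69 (1.32, limma adjusted p = 1.81e-05).

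The other leading rises included membrane and lipid proteins. Cldn10, a claudin, changed by 1.36, Cdh13, a cadherin anchored by lipid, by 1.25, and Lpar1, a receptor of lysophosphatidic acid, by 1.25. Lpar1 was at 6.92, 7.12 and 7.09 at day 9 and at 8.29, 8.41 and 8.17 at day 12, and its rise was slightly larger without the weak array (1.31). Cyp7b1, an oxysterol hydroxylase, changed by 1.26 and Abhd3, a phospholipase, by 1.24. Fbxo2, a ubiquitin ligase subunit that binds glycoproteins, had levels of 7.85, 7.61 and 7.71 at day 9 and 8.93, 9.00 and 8.98 at day 12, and among the rises its adjusted p was the smallest (1.25, limma adjusted p = 4.91e-07). Prkcq, a protein kinase C, changed by 1.18 and Hist1h2ao, a histone H2A gene whose probe may read close copies of the family, by 1.35.

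Astrocyte markers rose, as far as they passed the test. Of 16 kept genes of a list of 19, 6 rose with and without the weak array and 0 fell, and without that array alone 11 passed. The list's median was 0.45, and 0.80 without the weak array. Clu, the secreted chaperone clusterin, had levels of 9.26, 8.91 and 9.18 at day 9 and 10.42, 10.19 and 10.29 at day 12 (1.18, limma adjusted p = 7.8e-05). Aqp4, the water channel of astrocyte end-feet, went from 8.69, 8.04 and 8.18 to 9.17, 9.38 and 9.36 (1.00, limma adjusted p = 0.000873). In both, the lowest day 12 array was above the highest day 9 array. Acsbg1, an acyl-CoA synthetase, changed by 0.94, S100b, a calcium-binding protein, by 0.83 and Slc1a2, a glutamate transporter, by 0.43. S100b, and Cspg4 and Bcan below, were named after their values were seen, to complete the counts.

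Gfap and Apoe, among the best known astrocyte genes, did not pass. Gfap, the intermediate filament of astrocytes, had levels of 10.25, 10.11 and 10.16 at day 9 and 9.69, 9.62 and 9.87 at day 12. All 3 day 12 arrays lay below the day 9 arrays, but the change of -0.45 ± 0.22 had an adjusted p of 0.254 by limma (-0.49 and 0.262 without the weak array). Apoe, the lipid carrier of the brain, was at 12.04, 13.85 and 12.41 at day 9 and at 13.23, 13.37 and 13.08 at day 12. The weak array was the highest of all 6, and the change of 0.46 (limma adjusted p = 0.397) became 1.02 without it (limma adjusted p = 0.000575). The sum of the 16 markers was 40375 and 47842 on day 9 replicates a and c, 134278 on the weak array, and 71300 to 75888 on the day 12 arrays.

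Of 13 kept genes of the oligodendrocyte lineage, 5 rose and 0 fell, with a median of 0.38 (0.39 without the weak array). Pdgfra, the growth factor receptor of oligodendrocyte precursors, had levels of 9.39, 8.87 and 9.15 at day 9 and 10.23, 10.17 and 10.11 at day 12 (1.03, limma adjusted p = 2.9e-05). Cspg4, the NG2 proteoglycan of the same cells, changed by 0.49. The enzyme Cnp changed by 0.92, and Bcas1, a marker of early myelinating cells, by 0.90. Mbp, myelin basic protein, was at 6.57, 7.28 and 6.87 at day 9 and 6.95, 7.07 and 6.70 at day 12, detected on 2 of 3 arrays of each day, with a change of 0.00 (limma adjusted p = 0.996). Nkx2-2, a transcription factor of this lineage that was not on the list, was among the largest rises, from 9.01, 8.01 and 8.64 to 9.84, 9.82 and 9.89 (1.30, limma adjusted p = 0.000168).

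Markers of other cells were scarce. Of 11 microglia markers with a probe, 10 were detected on none of the 6 arrays, Aif1 among them, and Cd68 on 1 day 9 array and 0 day 12 arrays. Of 9 endothelial and pericyte markers with a probe, 7 were not detected, and the sum of Cldn5 and Flt1 was 179 to 282 at day 9 and 198 to 228 at day 12. None of the kept members of either list passed. Among 10 kept markers of progenitors and radial glia, 1 fell and 1 rose, Hopx, a homeodomain protein of radial glia and astrocytes (0.59, limma adjusted p = 0.0028). Fabp7, the most abundant of these 10, made up 76.5% to 87.4% of their summed level. The sum of the other 9 was 6636 and 7241 on day 9 replicates a and c, 7135 on the weak array, and 5330 to 6046 at day 12.

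Of 17 proliferation genes, 0 passed both ways, and 14 were lower at day 12. The list's median was -0.13, and -0.23 without the weak array, and its sum went from 13653 to 15338 at day 9 to 12626 to 12781 at day 12. Pcna, the DNA polymerase clamp, changed by -0.25 (limma adjusted p = 0.183), Mcm6, a replicative helicase subunit, by -0.11 (limma adjusted p = 0.476) and Mki67, the antigen of cycling cells, by 0.02 (limma adjusted p = 0.94).

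Of the pan-neuronal genes, which do not tell cortical from other neurons, 12 were kept. Their summed level was 14344 to 16563 at day 9 and 18083 to 19936 at day 12. Only Thy1, a surface glycoprotein of mature neurons, rose, from 7.55, 7.27 and 7.60 to 8.39, 8.08 and 8.09 (0.71, limma adjusted p = 0.000466). Tubb3, neuronal tubulin, was at 10.91, 11.01 and 10.97 and then at 11.30, 11.15 and 11.19 (0.25, limma adjusted p = 0.278). Map2, the microtubule protein of dendrites, was at 8.50, 8.50 and 8.49 and then at 8.51, 8.43 and 8.60, overlapping between days (0.02, limma adjusted p = 0.96). Of 12 excitatory neuron markers, 0 passed both ways. Slc17a7, the vesicular glutamate transporter of cortex, changed by 0.34 (limma adjusted p = 0.117), and by 0.48 without the weak array (limma adjusted p = 0.00541). Bcl11b, a transcription factor of projection neurons, changed by 0.20 (limma adjusted p = 0.499).

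**Figure D3:**
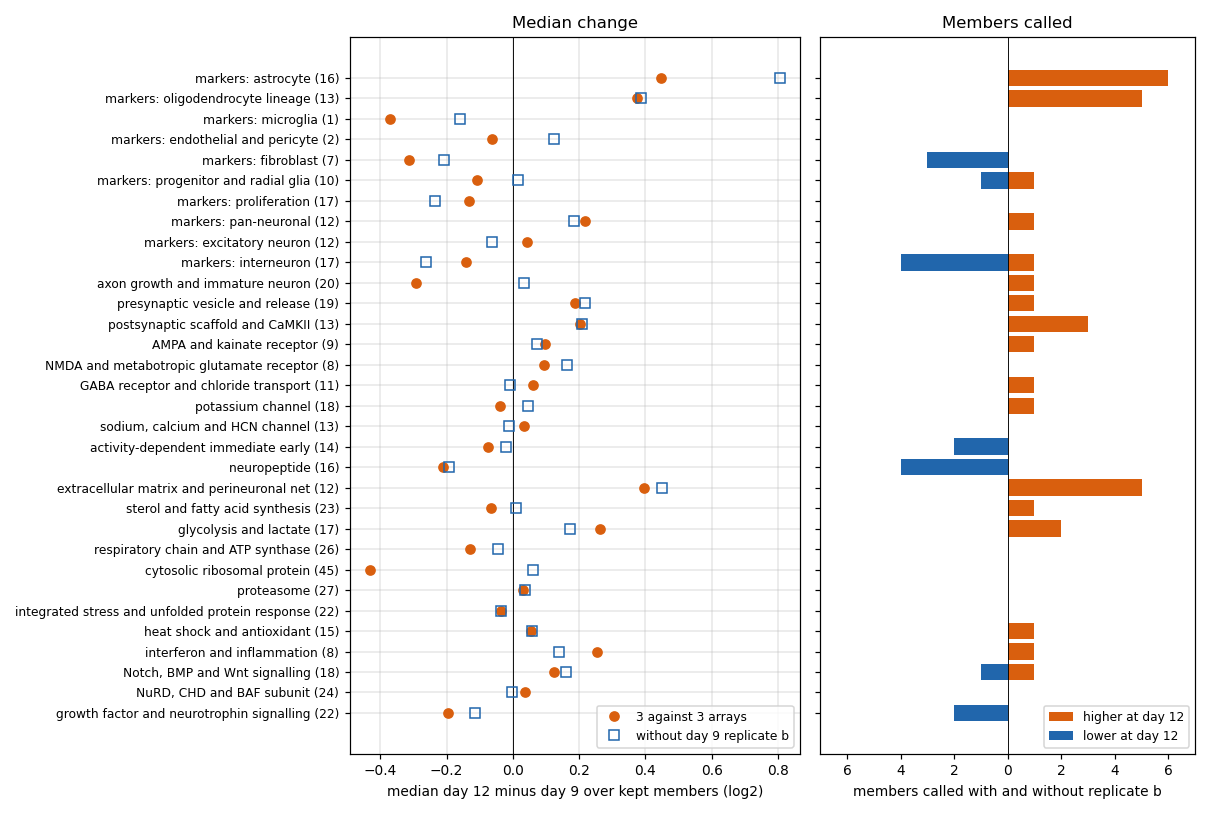
Left, median change from day 9 to day 12 (log2) over the kept members of each gene list, with (circles) and without (squares) the weak day 9 array, and the number of kept members in brackets. Right, the number of members that rose (orange) or fell (blue) both with and without that array, the most being 6 rises among astrocyte markers and 4 falls among interneuron markers and among neuropeptides.

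A few synaptic genes rose. Over all kept probes 2.67% rose both ways, so a list with a single passing gene is not set apart by that count. Of 13 kept genes of the postsynaptic scaffold and CaMKII, 3 rose and 0 fell, and the median was 0.20 (0.21 without the weak array). Camk2n1, an inhibitor of the kinase CaMKII, had levels of 11.89, 9.98 and 11.39 at day 9 and 12.07, 12.47 and 12.26 at day 12 (1.17, limma adjusted p = 0.0305), a rise that was 0.63 without the weak array, the lowest of all. Baiap2 and Dlgap1, proteins of the postsynaptic density, changed by 0.75 and 0.47. Dnm1, the dynamin that retrieves synaptic vesicles, was the only one of 19 kept presynaptic genes to rise (0.59, limma adjusted p = 0.0157), and 0 fell. Cacng3, an auxiliary subunit of AMPA receptors, was the only one of 9 kept genes of AMPA and kainate receptors to rise (0.44, limma adjusted p = 0.0138). Of 8 kept genes of NMDA and metabotropic glutamate receptors, 0 passed, and the subunits Grin1 and Grin2b changed by 0.29 and 0.14 (limma adjusted p = 0.185 and 0.734).

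Of 11 kept genes of GABA receptors and chloride transport, Slc12a5 rose and 0 fell. Slc12a5, or KCC2, the chloride exporter of mature neurons, went from 9.05, 8.16 and 8.89 to 9.55, 9.37 and 9.39 (0.74, limma adjusted p = 0.0133), with the weak array lowest and a rise of 0.48 without it. Kcnmb4, a subunit of calcium-gated potassium channels, was the only one of 18 kept potassium channel genes to pass (0.44, limma adjusted p = 0.0114). Among all kept probes 3.83% passed both ways, so these counts do not set the channel lists apart. Of 13 sodium, calcium and HCN channel genes, 0 passed both ways, and Cacna2d1 and Scn3b, auxiliary channel subunits, changed by -0.36 and -0.20 (limma adjusted p = 0.113 and 0.357). Of 20 genes of axon growth and immature neurons, Nrp1, a semaphorin receptor, rose (0.56, limma adjusted p = 0.0255) and 0 fell, and the list's median of -0.29 became 0.03 without the weak array.

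Of 14 kept activity-dependent genes, 2 fell and 0 rose both ways, against 1.16% and 2.67% of all kept probes, and the others were mixed. Bdnf, the neurotrophin, had levels of 7.97, 7.63 and 7.87 at day 9 and 7.29, 7.33 and 7.30 at day 12 (-0.51, limma adjusted p = 0.025). Nr4a3, an orphan nuclear receptor, changed by -0.54 (limma adjusted p = 0.0409). Named after their values were seen, Egr1 and Egr2 were higher, by 0.64 and 0.59 (limma adjusted p = 0.115 and 0.0385). Egr2 did not pass without the weak array (limma adjusted p = 0.0635). Dusp1 and Dusp6 passed as lower only without that array, at -0.77 and -0.71 (limma adjusted p = 0.00151 and 0.0174). Of 22 kept genes of growth factor and neurotrophin signalling, Bdnf and Gdf10, a secreted protein of the TGF-beta family, fell (-0.67 for Gdf10, limma adjusted p = 0.00337) and 0 rose. Among 18 genes of the Notch, BMP and Wnt pathways, Id3, an inhibitor of bHLH factors and a BMP target, rose from 6.73, 7.26 and 6.95 to 7.50, 7.65 and 7.78 (0.66, limma adjusted p = 0.00243). Wnt5a, a secreted Wnt ligand, was detected on 2 day 9 arrays and 0 day 12 arrays, and was at least 1.27-fold lower (limma adjusted p = 0.00731).

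Other genes of the extracellular matrix rose. Of 12 kept genes of the matrix and perineuronal nets, 5 rose and 0 fell, with a median of 0.39 (0.45 without the weak array). Sparc, a matricellular glycoprotein, had levels of 9.24, 8.63 and 9.35 at day 9 and 10.52, 10.10 and 10.21 at day 12 (1.21, limma adjusted p = 0.00149). Tnr, tenascin-R, a component of perineuronal nets, went from 7.47, 7.49 and 7.38 to 8.37, 8.51 and 8.23 (0.93, limma adjusted p = 0.000662). In both genes no day 12 array reached down to a day 9 array. Timp2, an inhibitor of metalloproteinases, changed by 0.73, Spock2, a brain proteoglycan, by 0.63 and Bcan, brevican, by 0.46.

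Few metabolic genes passed, and among all kept probes 3.83% passed both ways. Of 17 kept genes of glycolysis and lactate, Pfkm and Pgk1, phosphofructokinase and phosphoglycerate kinase, rose (0.41 and 0.34, limma adjusted p = 0.0253 and 0.0192) and 0 fell. Fads1, a fatty acid desaturase, was the only one of 23 genes of sterol and fatty acid synthesis to rise (0.58, limma adjusted p = 0.022), and 0 fell both ways. Without the weak array the sterol enzymes Mvd, Fdps and Ebp, named after their values were seen, passed as lower. Their changes there were -0.55, -0.36 and -0.59 (limma adjusted p = 0.00577, 0.0467 and 0.0108). Gstm1, a glutathione transferase, rose from 9.62, 9.01 and 9.56 to 10.81, 10.31 and 10.59 (1.17, limma adjusted p = 0.000226), the only one of 15 heat shock and antioxidant genes to pass. Vcam1, an adhesion molecule also made by astrocytes, was the only one of 8 kept genes of interferon and inflammation to rise (0.92, limma adjusted p = 0.00526).

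Genes of abundant cell machinery depended on the weak array. Of 45 kept cytosolic ribosomal protein genes, 0 passed, and their median of -0.43 became 0.06 without it. Rplp0, of the ribosomal stalk, was at 14.60, 19.13 and 15.26 at day 9 and at 15.04, 15.36 and 15.03 at day 12, with the weak array highest by more than 3 units (-1.18, and 0.22 without it). Rpl3, of the large subunit, behaved alike (-0.80 and 0.11). Of 26 genes of the respiratory chain and ATP synthase, 27 of the proteasome and 22 of the stress and unfolded protein responses, 0 passed, with medians of -0.04, 0.04 and -0.03 without the weak array. Their most abundant members changed by 0.02 (Cox6a1) and -0.05 (Atp5po), -0.05 (Psmc1) and 0.06 (Psmb4), and -0.05 (Calr) and -0.03 (Hspa5), again without that array.

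Subunits of NuRD, the deacetylase and remodeling complex that holds CHD3 to CHD5, and of BAF, another remodeling complex, did not pass both ways. Of 24 kept, 0 rose and 0 fell both ways, against 3.83% of all kept probes that passed, with a median of 0.04 and 0.00 without the weak array. The BAF subunit Actl6b, named after its value was seen, passed as lower without the weak array (-0.35, limma adjusted p = 0.033). With that array its change was -0.14 (limma adjusted p = 0.58). Chd4 had levels of 11.16, 11.19 and 11.26 at day 9 and 11.13, 11.43 and 11.12 at day 12 (0.02, limma adjusted p = 0.943). Chd3 was at 8.10, 7.71 and 7.77 and then at 8.04, 8.11 and 7.99 (0.18, limma adjusted p = 0.392). The days overlapped in both. The NuRD subunit Mta1 changed by 0.06 (limma adjusted p = 0.903), and by -0.35 without the weak array (limma adjusted p = 0.159).

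The same days were then compared in the cultures with CHD5 shRNA, on arrays that share no sample with the control comparison. There limma called 157 probes (1.55%), 108 higher (1.06%) and 49 lower (0.483%), and 568 (5.60%) when the weak control array did not enter the estimate of the spread. Of the 271 probes that rose in the control cultures, 267 were higher at day 12 with CHD5 shRNA and 91 were called. Of the 118 that fell, 116 were lower and 31 were called. The median change of the 271 was 0.65 in the control (0.56 without the weak array) and 0.41 with CHD5 shRNA, and of the 118 it was -0.52 (-0.54) and -0.32. The probes were chosen for their change in the control, which makes that value the larger of a pair on average. Across all kept probes the changes in control and CHD5 shRNA correlated with a Pearson r of 0.69 and a Spearman rho of 0.62 (0.65 and 0.52 without the weak array), a description across probes, which are not independent.

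**Figure D4:**
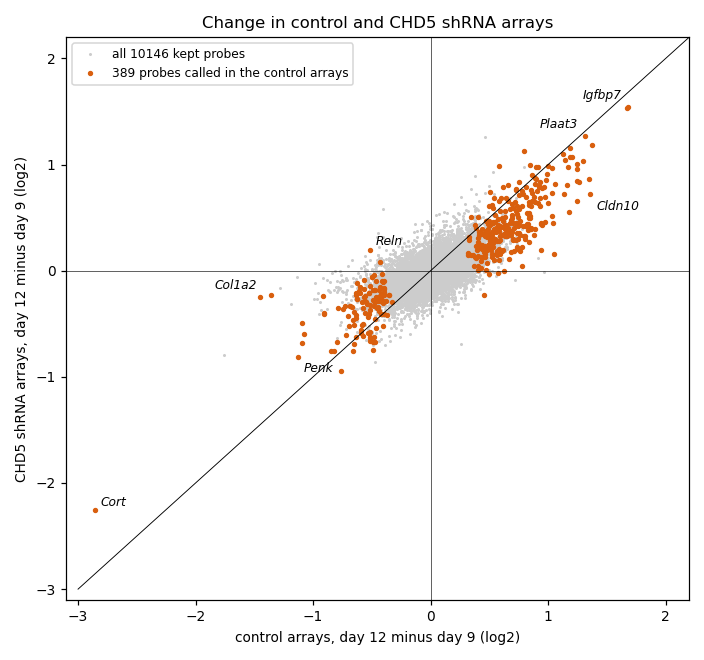
Change from day 9 to day 12 (log2) in the control arrays (x axis) and in the CHD5 shRNA arrays (y axis) of all kept probes (grey) and of the 389 probes that rose or fell in the control cultures (orange), with the line of equality. Cort fell in both (-2.86 and -2.26), while Col1a2 lies near 0 on the y axis.

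The difference between the changes with control and CHD5 shRNA was itself tested. limma called 0 of 10146 probes (0%), with a smallest adjusted p of 0.805 and 261 probes (2.57%) at an unadjusted p under 0.05. Without the weak array 1 probe was called (0.00986%), Anxa1, the annexin, named after its value was seen. It changed by -0.54 in the control cultures and by 0.60 with CHD5 shRNA in that fit (limma adjusted p of the difference = 0.0399). Cort fell with CHD5 shRNA by 2.26 on the log2 scale (limma adjusted p = 1.42e-08), and Penk, Pnoc, Adcyap1 and Nppc changed by -0.81, -0.68, -0.49 and -0.76 (limma adjusted p = 0.013, 0.00428, 0.0379 and 0.0019). Igfbp7, Entpd2, Plaat3, Clu, Aqp4 and Pdgfra were called there too, at 1.54, 1.54, 1.27, 1.08, 0.99 and 0.97. Col1a2 and Lox were not, at -0.25 and -0.23 (limma adjusted p = 0.889 and 0.817). Their mean day 9 levels were 7.39 ± 0.59 and 7.22 ± 0.26 (SD, n = 3) with CHD5 shRNA, against 8.38 ± 0.34 and 8.72 ± 0.32 in the control. No difference of change in these genes passed the test. The summed level of astrocyte markers was 22315 to 28904 at day 9 and 37275 to 39619 at day 12 with CHD5 shRNA, and that of fibroblast markers 701 to 933 and 757 to 846.

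The step from day 5 to day 9 in the control cultures uses the same day 9 arrays, so an error there moves both steps in opposite directions, and the values are only set side by side. For that step limma called 2491 probes (24.6%), and 2286 (22.5%) without the weak array. Of the 271 probes that rose from day 9 to day 12, 156 were called higher and 22 lower from day 5 to day 9. Of the 118 that fell, 40 were called lower and 18 higher. Glial genes had risen before: the mean level of Aqp4 was 6.34 ± 0.09, 8.30 ± 0.34 and 9.30 ± 0.12 (SD, n = 3) at days 5, 9 and 12, and that of Pdgfra 7.38 ± 0.14, 9.14 ± 0.26 and 10.17 ± 0.06. Apoe went from 8.02 ± 0.30 to 12.77 ± 0.96 and 13.23 ± 0.14. Gfap was at 8.02 ± 0.11, 10.17 ± 0.07 and 9.73 ± 0.13, with its highest mean at day 9.

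The falling genes had different courses. Cort was at 10.21 ± 0.06, 9.49 ± 0.11 and 6.63 ± 0.15 (SD, n = 3), so most of its fall came after day 9. Penk was at 9.15 ± 0.12 and 9.06 ± 0.41 at days 5 and 9 and at 7.93 ± 0.10 at day 12. Bdnf had its larger step earlier, at 9.66 ± 0.12, 7.82 ± 0.17 and 7.31 ± 0.02. Gad1 was at 11.72 ± 0.11, 12.78 ± 0.41 and 12.05 ± 0.04, higher at day 9 than on either side. Pnoc and Ifi27l2b were also called higher from day 5 to day 9, by 0.47 and 0.47, before they fell (limma adjusted p = 0.0089 and 0.0029).

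**Figure D5:**
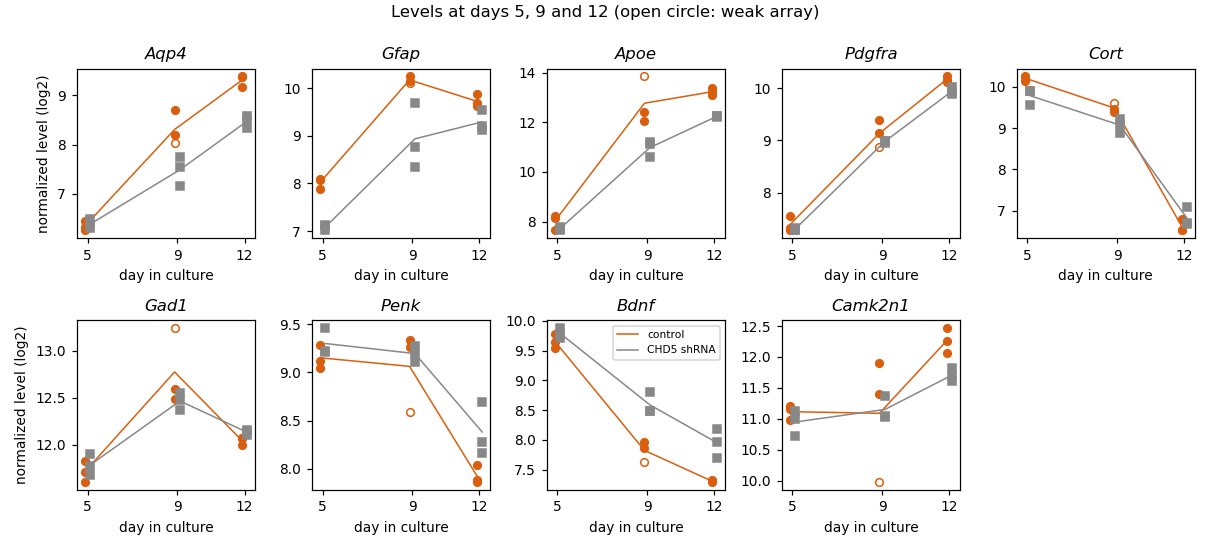
Normalized level (log2, y axis) of 9 genes at days 5, 9 and 12 in culture (x axis) on each array, with control in orange, CHD5 shRNA in grey and lines through the means of 3 arrays. The open circle is the weak array. Aqp4 and Pdgfra climb at both steps in the control, the mean of Gfap is highest at day 9, and Cort drops mainly after day 9 with either lentivirus.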

How the data were processed

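The authors extracted the deposited signal intensities with GenomeStudio 1.1.1 and, per the file header, neither normalized them nor subtracted a background, and gave a detection p-value per probe and array. Of 10146 kept probes, 9097 were matched to a RefSeq symbol. The 6 second measurements of replicate a entered alternatives only. Here limma 3.58.1 in R 4.3.3 was fitted to the 18 first-run arrays in 6 groups, with lmFit and eBayes on log2 levels scaled as in the study's methods. Adjustment was by Benjamini-Hochberg within a contrast, with a limit of 0.05. Named genes are the 15 largest rises and falls among genes that passed with and without the weak array and were detected on all arrays of the higher day, with 1 probe per gene, and up to 4 per direction of each list, or the 2 most abundant. Lists and members were chosen with earlier results of these data known. To check pairing by letter, deviations from the day means were correlated. Same-letter control arrays of days 9 and 12 correlated by 0.13, 0.25 and 0.17, and those of different letters by -0.28 to 0.17. Every same-letter value was above 0.1, so a block by letter was run as an alternative. The highest different-letter value, 0.17 for day 9 replicate a with day 12 replicate c, was no lower than 2 of the same-letter values. Pairing by letter is therefore not established, and the main fit left the arrays unpaired. On simulated data for this comparison over 10146 probes, 44% of log2 changes of 0.5 and 92% of changes of 1 were recovered, and 6.21% of calls were false. The number of arrays limits the precision. The alternatives were other normalizations, filters, array subsets, array weights, a block by letter, the second measurements, a fold of at least 1.5 and the methods' criteria. The slide of each array was not used here. The values of 4 named genes are not reported here.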

Additional observations from a re-analysis of the deposited data

How the results depend on the processing

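Against 472 probes called in the control arrays, 92 were called from the 9 control arrays alone, 20 from the 6 arrays alone, 214 after median centring without scaling, 790 after quantile normalization, 2520 with array weights, 224 with a fold of at least 1.5 and 177 by the methods' criteria. Leaving out each control array in turn gave 195 to 2004. Without the weak array, alternatives chosen after seeing the data gave 738 with neqc, 834 with quantile normalization and 988 from the 5 remaining arrays. Against 157 probes called with CHD5 shRNA, there were 55 after median centring, 293 after quantile normalization, 1985 with array weights, 103 with a fold of at least 1.5 and 568 without the weak array, and without that array also 297, 574 and 644 with median centring, neqc and quantile normalization. Leaving out each CHD5 shRNA array in turn, chosen after seeing the data, gave 71 to 105. Against 0 probes for the difference between the control and CHD5 shRNA changes, there were 78 with array weights, 1 with neqc (Cyp2d4), 1 without the weak array (Anxa1) and 2 with both (the same genes). Blocking by replicate letter, which treats arrays of the same letter as pairs, gave 567, 159 and 0 and moved no count by over 1.5 times. The subsets hold fewer arrays, and the cause of these shifts was not tested. None of the genes said to have risen or fallen changed direction under these alternatives, but 57 of 101 named genes lost their call from the 6 arrays alone. The other 44 kept their state, and they include genes that had no call to lose, such as Chd4 and Map2. The weak array had a mean signal of 2.07 times background, and the SD of its deviation from the other day 9 control arrays was 0.27 in the lowest of 5 bins of level and 0.86 in the highest.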
